A study of Homo sapiens with 6 samples.

Results

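The genes described here are 56 genes of DNA replication and of the passage from G1 into S phase, chosen by symbol. A probe set was taken where the array's annotation gave exactly 1 of these symbols, which held for 112 of the 54675 probe sets and for every one of the 56 genes. Of these probe sets, 97 passed a filter on low intensity, and all 56 genes kept at least 1, against 12405 genes tested in all. The arrays were of VCaP, an established human prostate cancer line with a TMPRSS2-ERG gene fusion. The cells carried an inducible short hairpin RNA (shRNA) that was either non-targeting (NTC) or directed against PRMT5, an arginine methyltransferase, as PRMT5 shRNA 1 or PRMT5 shRNA 2. Each of the 3 groups had 2 arrays, and all of them, NTC included, received 100 ng/ml doxycycline for 3 days. The labels do not say whether the 2 arrays of a group came from separate cultures, nor whether a line was 1 clone, so a p-value here reflects the spread of these arrays, part of which may be technical.

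Before a cell copies its DNA, the origin recognition complex, CDC6 and CDT1 load the MCM2-7 helicase onto origins. At the G1/S boundary cyclin E with CDK2, which the phosphatase CDC25A activates, and the kinase DBF4-CDC7 turn the loaded helicase on together with CDC45, GINS and MCM10, and polymerases alpha, delta and epsilon then follow with the clamp PCNA. Many of these genes are transcribed in late G1 by E2F factors, which pocket proteins such as RB and p107 (RBL1) hold back earlier in the cycle. Cells of a cancer line that divide in culture express them.

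The targeted gene was examined first. PRMT5 intensity was 810 and 881 on the NTC arrays, 136 and 134 with PRMT5 shRNA 1, and 291 and 321 with PRMT5 shRNA 2, so that both hairpins were below both controls and shRNA 1 was the deeper knockdown. Array medians lay between 14.8 and 16.5, and arrays of 1 group correlated at 0.996 to 0.997 over the genes tested. Of 11 prostate luminal and VCaP markers 9 were among the genes tested, with NTC means from 226 (KRT8) to 4702 (KLK2) and ERG at 1407. In the mean of both hairpins 4 of these 9 rose and 3 fell in limma's fit, with KLK3 (1.13) and KRT8 (0.58) changing by more than any of the 56 genes and HOXB13 (-0.28) and ERG (-0.21) among those that fell. By contrast 1 of 12 stromal, endothelial and immune markers was tested, COL1A1, with group means of 27.6 to 47.4. It did not pass against NTC and was higher with shRNA 2 than with shRNA 1 (0.54). Of 5 neuroendocrine markers 4 were tested, with no common direction: INSM1 fell in the mean of both hairpins (-0.43, limma adjusted p = 0.000209), CHGB rose with shRNA 2 (0.48, limma adjusted p = 0.00468), and SYP and CHGA did not pass in the mean or with either hairpin. Of 3 basal markers KRT14 was tested, with group means of 26.6 to 47.4. It was lower with shRNA 1 than with NTC (-0.43) and higher with shRNA 2 than with shRNA 1 (0.57), both passing. The ratio of 3' to 5' signal lay between 1.21 and 1.33 for GAPDH. For ACTB it was 3.49 and 3.88 with shRNA 1, below the range of 4.58 to 5.72 on the other 4 arrays. The part of RNA quality or of these markers in the results below was not tested.

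A kind of sequence motif was more frequent in the promoters of these genes than in promoters at large. RefSeq promoter windows (GRCh38.p14, 250 bases before to 50 after each gene's start) were at hand for 49 of the 56 genes, as 61 windows. They were searched on both strands for the E2F-type motifs TTTGGCGC, TTTCGCGC, TTTCCCGC and TTTGCCGC, which overlap each other on opposite strands where a match is palindromic. At least 1 of them stood in 25 of 61 windows (41.0%), against 3.31% of all 35116 promoter windows and 4.65% of those of tested genes outside the 56. By gene the count was 24 of 49 (49.0%), against 6.36% of the other tested genes. Of 33 matches 26 lay within 100 bases of the start. The mitotic CHR element (TTTGAA or TTCGAA) stood in 2 of 61 windows (3.28%). It stood in 16.4% of all windows, 11.9% of those of tested genes outside the 56 and 75.0% of the 28 windows of a list of mitosis genes. The CCAAT box stood in 57.4% of the windows, against 34.6% of all. Windows of these genes were rich in GC (median 65.7%), as were those of all genes tested (64.7%). A match describes the letters of a window and says nothing of binding in these cells.

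The sequences below show where these letters lie in 8 promoters, from 180 bases before to 20 after the start, 5' to 3' on the gene's strand. They were chosen after values were seen, to show 7 genes that fell and E2F1, which did not pass the test against NTC. Capitals mark the E2F-type matches, on either strand.
CDC25A, chr3:48188398-48188597, minus strand: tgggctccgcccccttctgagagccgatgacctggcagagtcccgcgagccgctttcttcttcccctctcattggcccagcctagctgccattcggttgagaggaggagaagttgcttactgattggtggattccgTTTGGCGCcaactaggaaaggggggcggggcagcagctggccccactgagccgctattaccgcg
MCM2, chr3:127598231-127598430, plus strand: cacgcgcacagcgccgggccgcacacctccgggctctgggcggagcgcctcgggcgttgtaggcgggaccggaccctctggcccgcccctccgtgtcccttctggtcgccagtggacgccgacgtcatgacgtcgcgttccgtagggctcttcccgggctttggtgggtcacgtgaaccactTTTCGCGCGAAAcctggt
MCM3, chr6:52284723-52284922, minus strand: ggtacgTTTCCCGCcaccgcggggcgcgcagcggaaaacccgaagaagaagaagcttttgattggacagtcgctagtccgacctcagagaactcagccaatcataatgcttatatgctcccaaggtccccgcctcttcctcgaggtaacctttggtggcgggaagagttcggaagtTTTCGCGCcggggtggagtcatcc
MCM6, chr2:135876424-135876623, minus strand: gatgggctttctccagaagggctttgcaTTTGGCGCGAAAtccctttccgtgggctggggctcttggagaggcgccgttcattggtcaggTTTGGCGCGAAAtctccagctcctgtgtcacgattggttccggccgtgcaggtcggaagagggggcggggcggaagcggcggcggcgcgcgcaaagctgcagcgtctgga
RBL1, chr20:37095978-37096177, minus strand: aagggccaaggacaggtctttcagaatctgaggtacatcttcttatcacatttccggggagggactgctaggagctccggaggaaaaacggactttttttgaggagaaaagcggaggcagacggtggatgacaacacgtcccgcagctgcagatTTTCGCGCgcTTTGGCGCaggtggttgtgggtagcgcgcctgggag
POLE2, chr14:49688195-49688394, minus strand: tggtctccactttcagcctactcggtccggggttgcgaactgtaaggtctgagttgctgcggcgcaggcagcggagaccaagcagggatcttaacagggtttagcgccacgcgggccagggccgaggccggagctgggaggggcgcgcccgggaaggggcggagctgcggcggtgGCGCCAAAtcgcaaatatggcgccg
TYMS, chr18:657473-657672, plus strand: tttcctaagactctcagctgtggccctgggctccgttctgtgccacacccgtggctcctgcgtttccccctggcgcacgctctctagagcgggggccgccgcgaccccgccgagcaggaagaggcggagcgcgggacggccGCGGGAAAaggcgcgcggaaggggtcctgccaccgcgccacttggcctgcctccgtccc
E2F1, chr20:33686366-33686565, minus strand: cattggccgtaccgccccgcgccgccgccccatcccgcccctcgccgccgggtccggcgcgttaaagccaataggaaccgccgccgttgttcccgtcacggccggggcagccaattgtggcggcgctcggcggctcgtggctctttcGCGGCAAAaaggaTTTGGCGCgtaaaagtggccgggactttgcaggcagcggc
In CDC25A, RBL1, POLE2, TYMS and E2F1 the capitals lie close before the start or, in POLE2, across it, in MCM2 they mark a palindrome just after it, MCM3 has a match at the far upstream end and one at the start, and MCM6 has a pair well upstream.

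**Figure D1:**
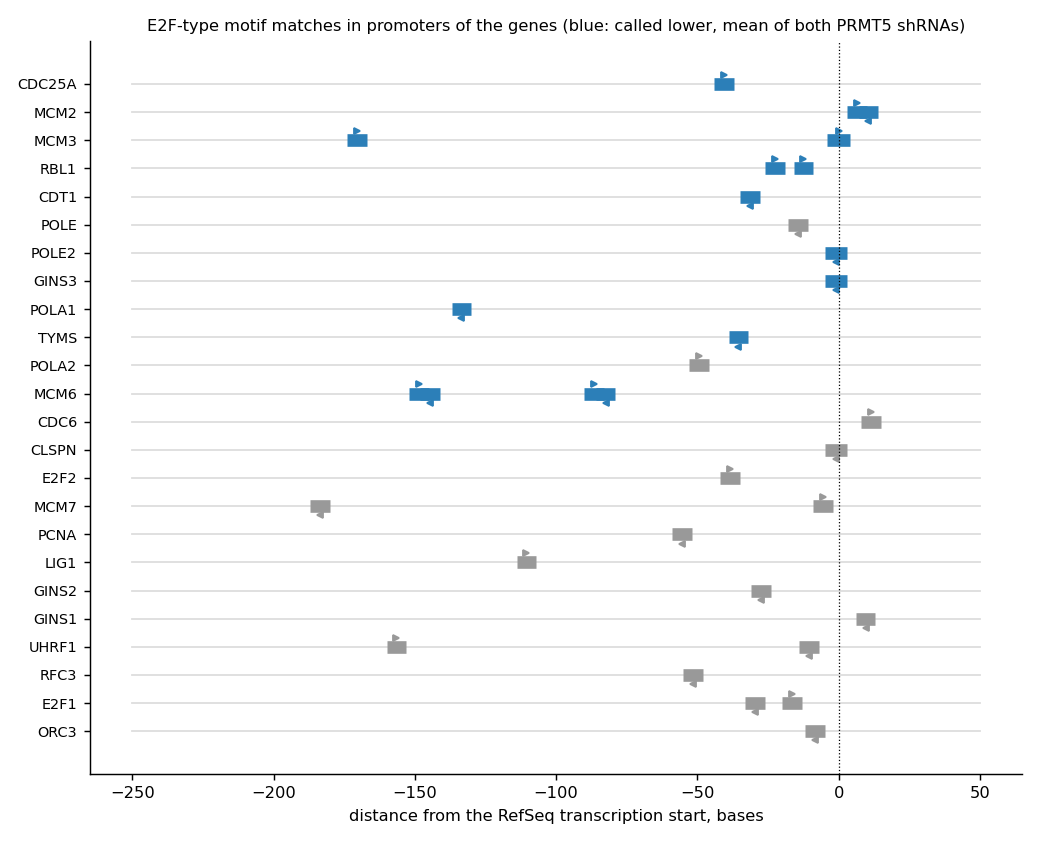
Position of each E2F-type match (blocks, with an arrowhead for the strand) in the promoter windows (grey lines) of the 24 genes that hold one, in bases from the RefSeq start; blue marks genes called lower in the mean of both hairpins. Most matches, 26 of 33, lie within 100 bases of the start.

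Against NTC, the mean of both hairpins was lower for 15 of the 56 genes and higher for 2 in limma's fit (Benjamini-Hochberg adjusted p under 0.05 over all genes tested), and 39 did not pass. That is 26.8% lower, where 17.0% of all genes tested were lower, and 3.57% higher, where 15.4% of all genes were higher. The median log2 difference, on the scale log2(intensity + 16) used throughout, was -0.09 over the 56 genes and -0.02 over all genes, with a range of -0.50 to 0.47. The changes were small: CDC25A, with the largest fall on this scale, stood at 65.5% and 75.0% of its NTC intensity with shRNA 1 and shRNA 2, and the dim POLD1 at 62.5% and 75.7%. All 4 knockdown arrays lay below both NTC arrays for 18 of the 56 genes, where 20.5% of all genes did so, and above them for 4, ORC4, PRIM1, RPA2 and RPA3, where 18.7% did. In bulk RNA, fewer cells in S phase and less of these RNAs per cell cannot be told apart.

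**Figure D2:**
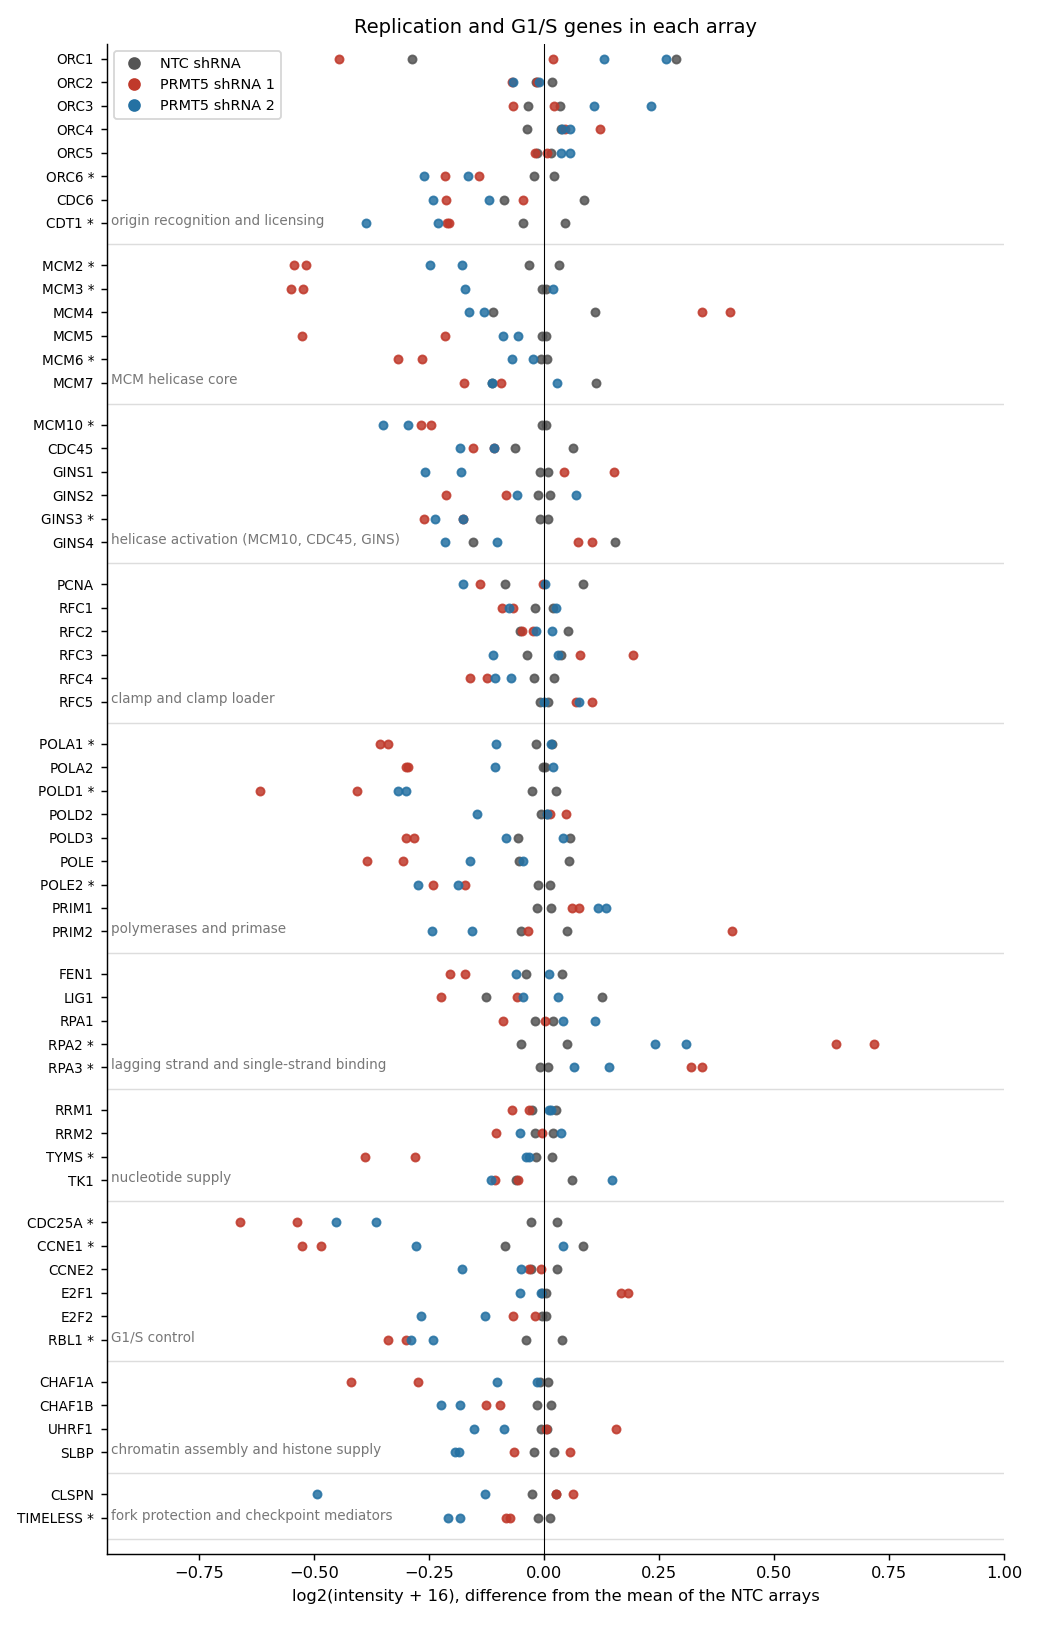
Log2 difference of each of the 56 genes from the mean of the NTC arrays, on each array (points), grouped by role. An asterisk marks the 17 genes called in the mean of both hairpins. CDC25A lies to the left of both NTC points on all 4 knockdown arrays, and RPA2 to the right.

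The calls rest on few arrays. Of the 17 genes called in the mean of both hairpins, 5 kept the call whichever array was left out: CDC25A, MCM2, MCM3, MCM10 and RPA2. The count of 17 became 6 without NTC replicate 1, 7 without NTC replicate 2 and 11 without PRMT5 shRNA 1 replicate 2. POLD1 and RBL1 lost the call only without NTC replicate 1 (limma adjusted p = 0.0701 and 0.0667). GINS3, POLE2, TYMS and RPA3 lost it without either NTC array, with adjusted p of up to 0.103, 0.12, 0.139 and 0.0917, and CCNE1 lost it without NTC replicate 2 or PRMT5 shRNA 1 replicate 2 (up to 0.218). MCM6 and ORC6 lost it without any of these 3 arrays (up to 0.153 and 0.166), and CDT1, POLA1 and TIMELESS kept it in 1 of the 6 such fits each (up to 0.242, 0.203 and 0.262). Every one of the 17 genes kept its direction in all 6 fits. The count over all genes changed in these fits too. The share of these genes called lower (26.8% with all arrays) was not set beside that of all genes (17.0%) within each fit. The excess of lower genes is therefore not taken to hold when an array is left out.

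Of the 6 G1/S control genes, CDC25A, RBL1 and CCNE1 fell in the mean of both hairpins. CDC25A, the phosphatase that activates CDK2, had intensities of 945 and 984 on the NTC arrays, 660 and 604 with shRNA 1, and 701 and 745 with shRNA 2. All 4 knockdown arrays lay below both controls without overlap, and its log2 difference was -0.50 (SE 0.06, limma adjusted p = 8.7e-05) for the mean, -0.60 with shRNA 1 and -0.41 with shRNA 2. RBL1, which encodes the pocket protein p107, fell from 462 and 437 to 352 and 362 with shRNA 1 and 365 and 378 with shRNA 2. Its groups did not overlap either, and the difference was -0.29 (SE 0.06, limma adjusted p = 0.00427), with like values for both hairpins. CCNE1, cyclin E1, was 286 and 324 with NTC, 213 and 207 with shRNA 1, and 248 and 314 with shRNA 2. Its shRNA 2 arrays overlapped the controls, and the call in the mean (-0.31, SE 0.09, limma adjusted p = 0.0254) came with a difference of -0.51 with shRNA 1 and -0.12 with shRNA 2. On their brightest probe sets CCNE2, E2F1 and E2F2 did not pass, with 95% intervals of the log2 difference of -0.19 to 0.05, -0.05 to 0.20 and -0.25 to 0.01. In a fit over all probe sets, a dim one of E2F2 fell with shRNA 2 (-0.55, limma adjusted p = 0.0045) and not with shRNA 1 (0.04). A dimmer CCNE2 probe set was lower with shRNA 2 than with shRNA 1 in that fit (-0.41, limma adjusted p = 0.0104). E2F1 intensities were 417 and 419 with NTC, 477 and 472 with shRNA 1, and 416 and 403 with shRNA 2, so the shRNA 1 arrays were the high ones.

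Of the 8 genes of origin recognition and licensing, 2 fell in the mean of both hairpins. CDT1, the loading factor, was 140 and 131 with NTC, 115 and 115 with shRNA 1, and 99.7 and 113 with shRNA 2, all 4 below the controls (-0.26, SE 0.08, limma adjusted p = 0.0345). A second, dim CDT1 probe set moved the other way, as described with the probe sets. ORC6, the smallest origin recognition subunit, was 727 and 749 with NTC, 668 and 633 with shRNA 1, and 614 and 657 with shRNA 2, again without overlap (-0.20, SE 0.06, limma adjusted p = 0.0234). CDC6 did not pass (-0.15, 95% interval -0.33 to 0.02), and neither did ORC1 to ORC5. ORC1 was dim and spread widely, at 63.1 and 37.1 on the NTC arrays, so it has the widest interval of these genes (-0.37 to 0.35).

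Of the 6 subunits of the MCM2-7 helicase, MCM2, MCM3 and MCM6 fell in the mean and MCM4, MCM5 and MCM7 did not pass. MCM2 was 665 and 635 with NTC, 450 and 441 with shRNA 1, and 545 and 573 with shRNA 2. The 3 groups did not overlap, with shRNA 1 lowest and shRNA 2 between it and NTC, and the mean difference was -0.37 (SE 0.06, limma adjusted p = 0.000609). MCM3 was 655 and 659 with NTC and 452 and 444 with shRNA 1, but 582 and 667 with shRNA 2, where the arrays lay on either side of the controls (mean difference -0.31, SE 0.06, limma adjusted p = 0.00447). MCM6 was 1120 and 1131 with NTC, 934 and 901 with shRNA 1, and 1106 and 1071 with shRNA 2 (-0.17, SE 0.05, limma adjusted p = 0.0236), below the controls on all 4 arrays but close to them with shRNA 2. MCM5 passed with shRNA 1 alone (-0.37, limma adjusted p = 0.0237), at 105 and 105 with NTC against 88.2 and 68.0. That difference ran from -0.53 to -0.21 with 1 array left out, and the call was lost without NTC replicate 1, NTC replicate 2 or PRMT5 shRNA 1 replicate 2 (limma adjusted p up to 0.216). MCM4 stood apart from the other subunits on its brightest probe set. Its intensity there was 1067 and 1246 with NTC, 1531 and 1468 with shRNA 1, and 1029 and 1053 with shRNA 2. Both shRNA 1 arrays lay above both controls (0.37, SE 0.07, limma adjusted p = 0.00241) and both shRNA 2 arrays below them (-0.15, not passing). That probe set was the brightest over all 6 arrays, its high shRNA 1 values included. On the NTC arrays another MCM4 probe set was brighter (mean 1218 against 1157). It did not pass with shRNA 1 (0.13, limma adjusted p = 0.238 in the fit over all probe sets). On its brightest probe set MCM7 did not pass in any contrast, with a 95% interval of -0.24 to 0.07 for the mean. A second MCM7 probe set lay below the controls on all 4 knockdown arrays and did not pass either (-0.18, limma adjusted p = 0.0614).

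Among the 6 factors that activate the helicase, MCM10 and GINS3 fell in the mean. MCM10, which is needed for the loaded helicases to begin unwinding, was 699 and 695 with NTC, 585 and 576 with shRNA 1, and 543 and 565 with shRNA 2. The 4 knockdown arrays lay well below the controls (-0.29, SE 0.05, limma adjusted p = 0.0021), with -0.26 and -0.32 for the hairpins. GINS3 was 700 and 708 with NTC, 621 and 585 with shRNA 1, and 595 and 621 with shRNA 2 (-0.21, SE 0.06, limma adjusted p = 0.0143), also without overlap. GINS1 did not pass in the mean: it was 1497 and 1480 with NTC, 1535 and 1655 with shRNA 1, and 1311 and 1242 with shRNA 2, above the controls with the first hairpin and below them with the second. CDC45 lay below the controls on all 4 arrays and did not pass (-0.14, limma adjusted p = 0.107). GINS2 and GINS4 did not pass either, and GINS4 was near the array median, at 19.6 to 30.0.

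Of the 9 polymerase and primase genes, 3 fell in the mean. POLD1, the catalytic subunit of polymerase delta, was dim, at 62.0 and 59.2 with NTC, 33.9 and 41.8 with shRNA 1, and 45.5 and 46.2 with shRNA 2. All 4 knockdown arrays were lower, and the difference of -0.41 (SE 0.10, limma adjusted p = 0.00757) rests on intensities not far above the array medians. POLE2, an accessory subunit of polymerase epsilon, was 601 and 589 with NTC, 500 and 526 with shRNA 1, and 521 and 489 with shRNA 2, with no overlap (-0.22, SE 0.06, limma adjusted p = 0.0157). POLA1, the catalytic subunit of polymerase alpha, was 422 and 412 with NTC, 326 and 322 with shRNA 1, and 387 and 421 with shRNA 2 (-0.20, SE 0.06, limma adjusted p = 0.0352), where only shRNA 1 lay clear of the controls. On their brightest probe sets POLE, POLA2 and POLD3 passed with shRNA 1 alone, at -0.35, -0.30 and -0.29. POLE lost that call without NTC replicate 2 or either shRNA 1 array (limma adjusted p up to 0.131), and POLD3 without NTC replicate 2 or PRMT5 shRNA 1 replicate 2 (up to 0.0845). A second POLA2 probe set fell in the mean of both hairpins too (-0.31, limma adjusted p = 0.00998). POLD2 and the primase genes PRIM1 and PRIM2 did not pass against NTC, and PRIM1 was above the controls on all 4 arrays (0.10). PRIM2 has a near-identical partial copy in the genome that the probes may not separate.

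On its brightest probe set no gene of the clamp or of its loader, PCNA and RFC1 to RFC5, passed against NTC in the mean or with either hairpin. Under quantile normalization RFC4 was called in the mean. Some dimmer probe sets passed with 1 hairpin in the fit over all probe sets: for RFC5 (-0.18) and RFC3 (-0.44) with shRNA 1, and another of RFC3 (-0.37) with shRNA 2. PCNA, the sliding clamp, was 2143 and 1905 with NTC, 1834 and 2016 with shRNA 1, and 1785 and 2022 with shRNA 2. The groups overlapped, and the 95% interval of its mean difference was -0.23 to 0.07.

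The genes that rose encode single-strand binding proteins. RPA2, the middle subunit of replication protein A, was 236 and 254 with NTC, 413 and 390 with shRNA 1, and 293 and 307 with shRNA 2. The 3 groups did not overlap, and its log2 difference was 0.47 (SE 0.07, limma adjusted p = 0.000347), with 0.68 for shRNA 1 and 0.27 for shRNA 2. RPA3, the small subunit, was 573 and 565 with NTC, 714 and 726 with shRNA 1, and 630 and 596 with shRNA 2 (0.22, SE 0.05, limma adjusted p = 0.0116), above the controls on all 4 arrays. RPA1, the large subunit, did not pass (0.02). Of the lagging-strand enzymes, the ligase LIG1 did not pass, and the nuclease FEN1 passed with shRNA 1 alone (-0.19, limma adjusted p = 0.0261), a call lost without any 1 of the NTC or shRNA 1 arrays (up to 0.192).

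Of the 4 nucleotide supply genes, TYMS, thymidylate synthase, fell, from 1584 and 1623 to 1220 and 1317 with shRNA 1 and 1567 and 1561 with shRNA 2. All 4 knockdown arrays were lower, by little with shRNA 2 (mean -0.19, SE 0.05, limma adjusted p = 0.0158). The dimmest TYMS probe set fell by more with shRNA 2 (-0.34, limma adjusted p = 0.0297 in the fit over all probe sets) than with shRNA 1 (-0.15, not passing). The ribonucleotide reductase subunits RRM1 and RRM2 did not pass, with 95% intervals of -0.12 to 0.08 and -0.14 to 0.08, and neither did thymidine kinase TK1 (-0.20 to 0.13), on the brightest probe set of each. Of the 4 chromatin genes none passed in the mean. The CHAF1A values below are of its brightest probe set. Its other kept ones did not pass with shRNA 1 (-0.05, -0.05 and 0.01 in the fit over all probe sets). UHRF1, which helps keep DNA methylation through replication, gave an interval of -0.15 to 0.11, and CHAF1A, a subunit of the histone chaperone CAF-1, passed with shRNA 1 alone (-0.35, limma adjusted p = 0.0105), a call lost without NTC replicate 1 or PRMT5 shRNA 1 replicate 1 (up to 0.0868). Of the fork protection genes, TIMELESS was 1135 and 1156 with NTC, 1082 and 1088 with shRNA 1, and 1008 and 990 with shRNA 2 (-0.14, SE 0.05, limma adjusted p = 0.0498), lower on all 4 arrays and at the edge of the threshold. CLSPN did not pass.

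Each hairpin was also compared with the same NTC arrays, so these comparisons are not independent of each other. With shRNA 1, 18 of the 56 genes were lower and 3 higher, where 23.1% and 16.2% of all genes were. With shRNA 2, 10 were lower and 1 higher, where 8.38% and 13.1% of all genes were. Lower with each hairpin were 6 genes, CDC25A, MCM2, RBL1, MCM10, POLE2 and GINS3, where 6.09% of all genes were lower with each. RPA2 alone was higher with each, where 8.35% of all genes were. The genes lower with shRNA 1 included 12 not called with shRNA 2. Those lower with shRNA 2 included 4 not called with shRNA 1, CDT1, ORC6, TIMELESS and GINS1. Against NTC, 31 of the 56 genes were called in no contrast. The counts of 12, 4 and 31 were not made over all genes, so they are not read as a trait of the 56. Leaving out 1 array at a time, the shRNA 2 count of 11 fell to 2 without NTC replicate 1 and to 2 without NTC replicate 2, and to 6 without PRMT5 shRNA 2 replicate 1 and 7 without each of the other 3 arrays. Of the genes lower with each hairpin, only CDC25A and MCM10 kept their shRNA 2 calls throughout, and GINS3 lost its call in every such fit. With shRNA 2 and 1 array left out, MCM2 ran from -0.25 to -0.18 and GINS3 from -0.24 to -0.18. RBL1 ran from -0.31 to -0.23 and POLE2 from -0.27 to -0.19. The shRNA 1 count of 21 stayed between 14 and 24, and MCM10, RBL1, GINS3 and POLE2 lost their shRNA 1 calls without NTC replicate 1 (limma adjusted p up to 0.0523, 0.0502, 0.141 and 0.165 over these fits).

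The test between the hairpins themselves called 17 of the 56 genes. Higher with shRNA 2 than with shRNA 1 were 9 of them, where 18.3% of all genes were, and lower were 8, where 7.37% were. Among the 9 were MCM3 (0.46, SE 0.07, limma adjusted p = 0.00238), MCM2 (0.32) and MCM6 (0.24) of the helicase. The others were the polymerase genes POLA1 (0.30), POLA2 (0.25) and POLD3 (0.27), with TYMS (0.30), CCNE1 (0.39) and CHAF1A (0.29). On the brightest probe set of each of these 9 the difference from NTC was negative with both hairpins. That it was larger with shRNA 1 follows from how the 9 were picked, and a relation to PRMT5 intensity was not tested. Among the 8 were MCM4 (-0.52, SE 0.07, limma adjusted p = 0.00126), RPA2 (-0.40), PRIM2 (-0.39), CLSPN (-0.36), GINS1 (-0.32), RPA3 (-0.23), E2F1 (-0.20) and UHRF1 (-0.20). RPA2 and RPA3 were above NTC with both hairpins, and the remaining 6 had a positive difference with shRNA 1 and a negative one with shRNA 2. The count of 17 fell to 8 without PRMT5 shRNA 1 replicate 1, 7 without PRMT5 shRNA 1 replicate 2 and 9 without PRMT5 shRNA 2 replicate 2, and GINS1, MCM3, MCM4, RPA2 and TYMS kept their calls whichever array was left out. The TYMS probe sets did not move together, at 0.30, 0.18 and -0.18 between the hairpins, and only the brightest passed in the fit over all probe sets. CHAF1A was not among the genes that kept their calls, and ran from 0.22 to 0.36 with 1 array left out. A dim CHAF1A probe set was lower with shRNA 2 than with shRNA 1 (-0.42, limma adjusted p = 0.0488 in the fit over all probe sets).

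**Figure D3:**
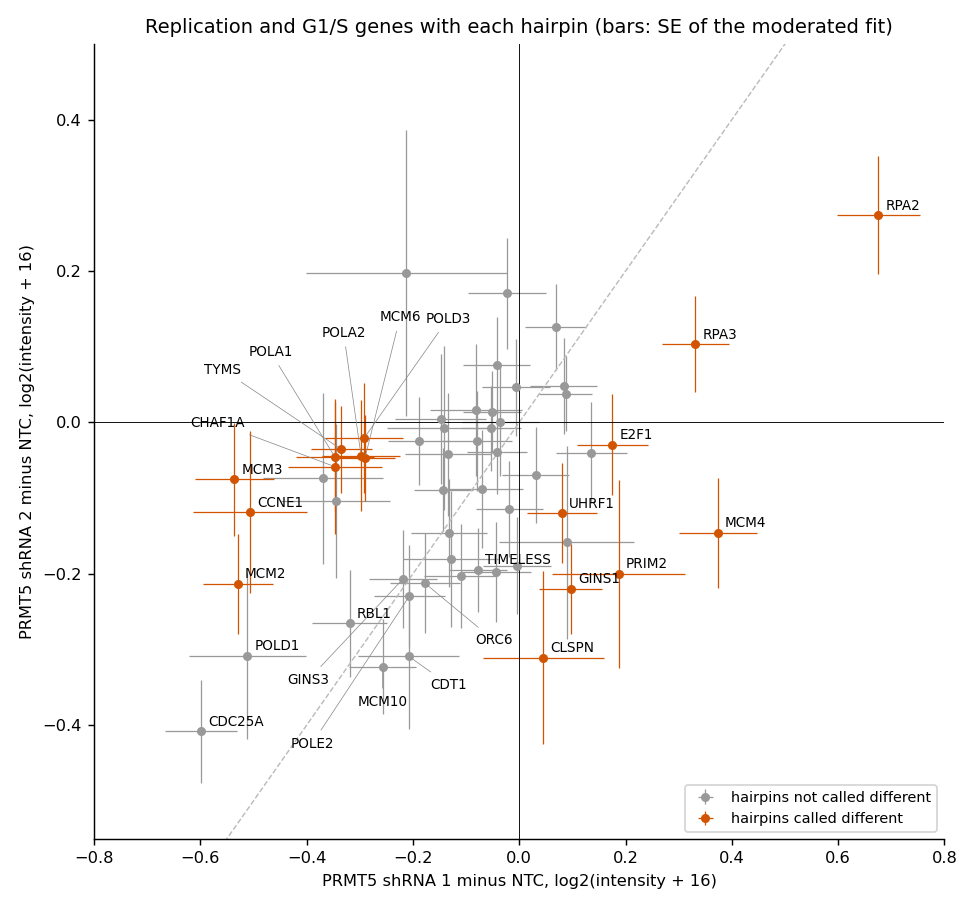
Log2 difference from NTC with PRMT5 shRNA 1 (horizontal) and PRMT5 shRNA 2 (vertical) for the 56 genes, with bars for the SE and a dashed line of equal difference; both axes share the NTC arrays. Orange marks the 17 genes that differed between the hairpins, 9 to the left of the line and 8 to its right.

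The other probe sets of these genes give a further reading of the same RNA. Of the 97 probe sets kept, 23 were lower and 4 higher in the mean of both hairpins in a fit over all probe sets, where 15.0% and 14.2% of all probe sets were. CDC25A, MCM10 and TYMS each had 3 probe sets kept, and all 3 fell in each gene. The brightest TIMELESS probe set, at the edge of the threshold among genes, did not pass in this fit, while its dimmer one fell (-0.34, limma adjusted p = 0.0179). For CDC25A they gave -0.50, -0.38 and -0.37. All 4 kept probe sets of MCM4 were lower with shRNA 2 than with shRNA 1 (-0.18, -0.61, -0.35 and -0.52), and the last 3 of these passed, where 11.5% of all probe sets were lower. The difference of MCM4 from NTC with shRNA 1 was less even, at -0.07, 0.29, 0.13 and 0.37, and only the brightest passed.

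Probe sets of 1 gene did not always move together. Of 31 genes with more than 1 kept probe set, 8 had both signs in the mean of both hairpins, and CDT1 alone was called both ways. Its brighter probe set fell as above, while a dim one rose from 21.8 and 22.2 with NTC to 32.8 and 27.9 with shRNA 1 and 28.4 and 32.3 with shRNA 2 (0.28, SE 0.10, limma adjusted p = 0.0478). RRM2 is named here after its values were seen: its second probe set rose from 1274 and 1342 to 1613 and 1610 with shRNA 1 and 1727 and 1510 with shRNA 2, without overlap (0.30, SE 0.06, limma adjusted p = 0.00329), while the brightest one did not pass (-0.03). A second TK1 probe set fell (-0.23, limma adjusted p = 0.0194) where the brighter one did not pass. Of the 97 probe sets, 39 are of the kinds that the array's design marks as matching several transcripts, among them those used for CDT1, ORC6, MCM2 and CHAF1A.

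**Figure D4:**
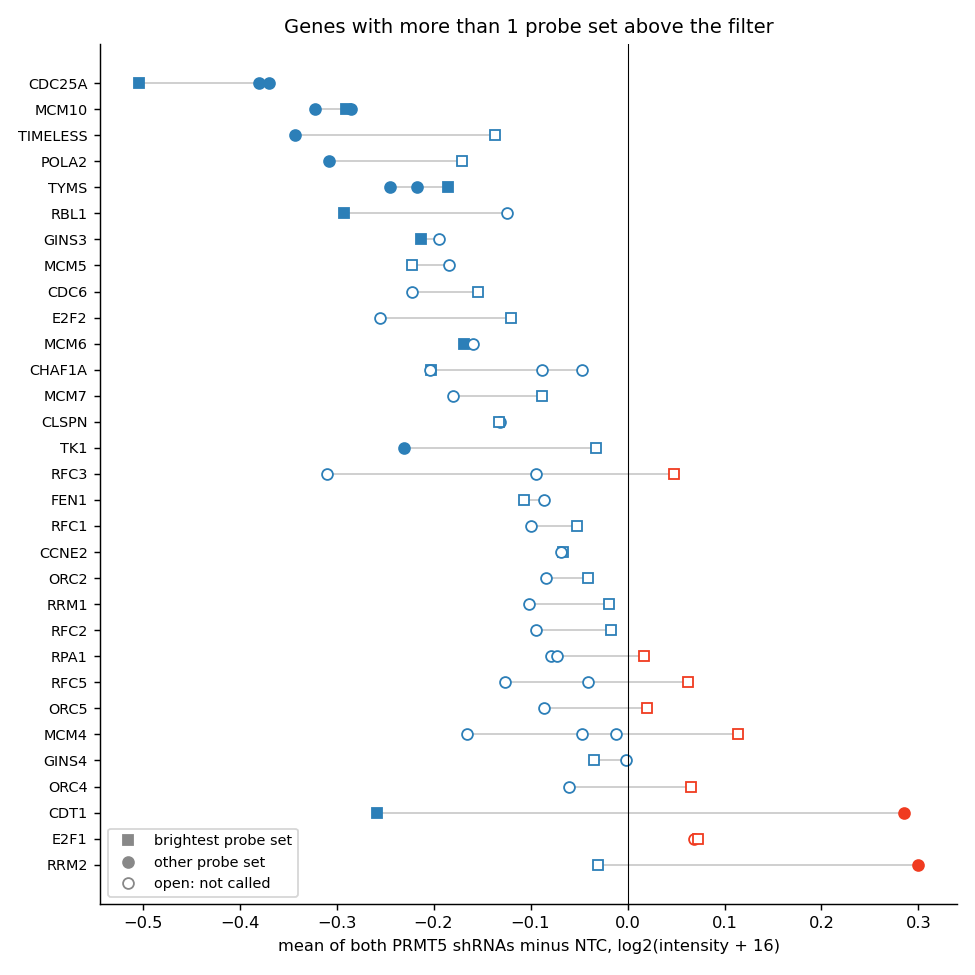
Log2 difference in the mean of both hairpins for each kept probe set of the 31 genes with more than 1; squares are the brightest probe set, filled symbols passed the test over all probe sets, and blue is lower and red higher. CDC25A, MCM10 and TYMS have 3 filled symbols each to the left of 0, and CDT1 has 1 on either side.

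Genes with and without an E2F-type match were then set side by side. Of the 24 genes with one in a window, 10 were lower in the mean of both hairpins and 0 higher, with a median log2 difference of -0.16, where 17.0% of all genes tested were lower and 15.4% higher. Of the 25 with a window and no match, 5 were lower and 0 higher, with a median of -0.04, and of the 7 without a window 0 were lower and 2 higher. The difference between these sets was not tested.

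Genes of the same pathways outside the 56 were counted in the same fit, for the mean of both hairpins, where 17.0% of all genes were lower and 15.4% higher. Of 14 other prereplication and origin firing factors 4 were lower and 1 higher. RECQL4, a helicase of origin firing, fell by 0.49 and DBF4, the activator of the kinase CDC7, by 0.41. TOPBP1, which helps to assemble the active helicase, fell by 0.31 and the helicase gene MCM8 by 0.28. MCM9 was the gene called higher (0.24, limma adjusted p = 0.0153). Of 28 other fork, clamp, polymerase and chromatin genes tested, 11 were lower and 2 higher. The maintenance methyltransferase DNMT1 fell by 0.48, CDCA7, a partner of the remodeller HELLS, by 0.56, and RNASEH2B, a subunit of ribonuclease H2, by 0.44. POLD4, the small subunit of polymerase delta, rose by 0.83, from a mean of 41.2 with NTC to 96.7 and 76.5. Of 10 replication checkpoint genes tested 3 were lower and 0 higher, CDC25B (-0.39), ETAA1 (-0.28) and ATR (-0.22).

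Of 17 other E2F, pocket protein and DREAM complex genes 4 were lower and 1 higher. MYBL1, a MYB family transcription factor, fell by 1.06, from a mean of 364 with NTC to 165 and 169, with close values for both hairpins (-1.08 and -1.04). MYBL2, its relative in cycling cells, fell by 0.31, E2F6 by 0.25 and LIN52 by 0.33. TFDP2 was the gene called higher (0.20, limma adjusted p = 0.0267). Of 17 other G1 cyclins, kinases and inhibitors tested 0 were lower and 2 higher. CDKN1A, which encodes the CDK inhibitor p21, had means of 436 with NTC, 443 with shRNA 1 and 925 with shRNA 2, a difference of 0.02 with shRNA 1 and 1.05 with shRNA 2, and the hairpins differed (1.03, SE 0.10, limma adjusted p = 0.00021). CDKN1C, which encodes p57, rose by 0.55. Of 28 other nucleotide synthesis genes tested 7 were lower and 0 higher, with CAD, the first enzyme of pyrimidine synthesis, at -0.84 and the purine synthesis enzymes PFAS and GART at -0.59 and -0.41. SAMHD1, which breaks down deoxynucleotides, was also lower (-0.53). Of 30 mitosis genes, set beside these for comparison, 9 were lower and 0 higher, led by the transcription factor FOXM1 (-0.41), with 11 lower with shRNA 1 and 1 with shRNA 2, where 23.1% and 8.38% of all genes were.

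**Figure D5:**
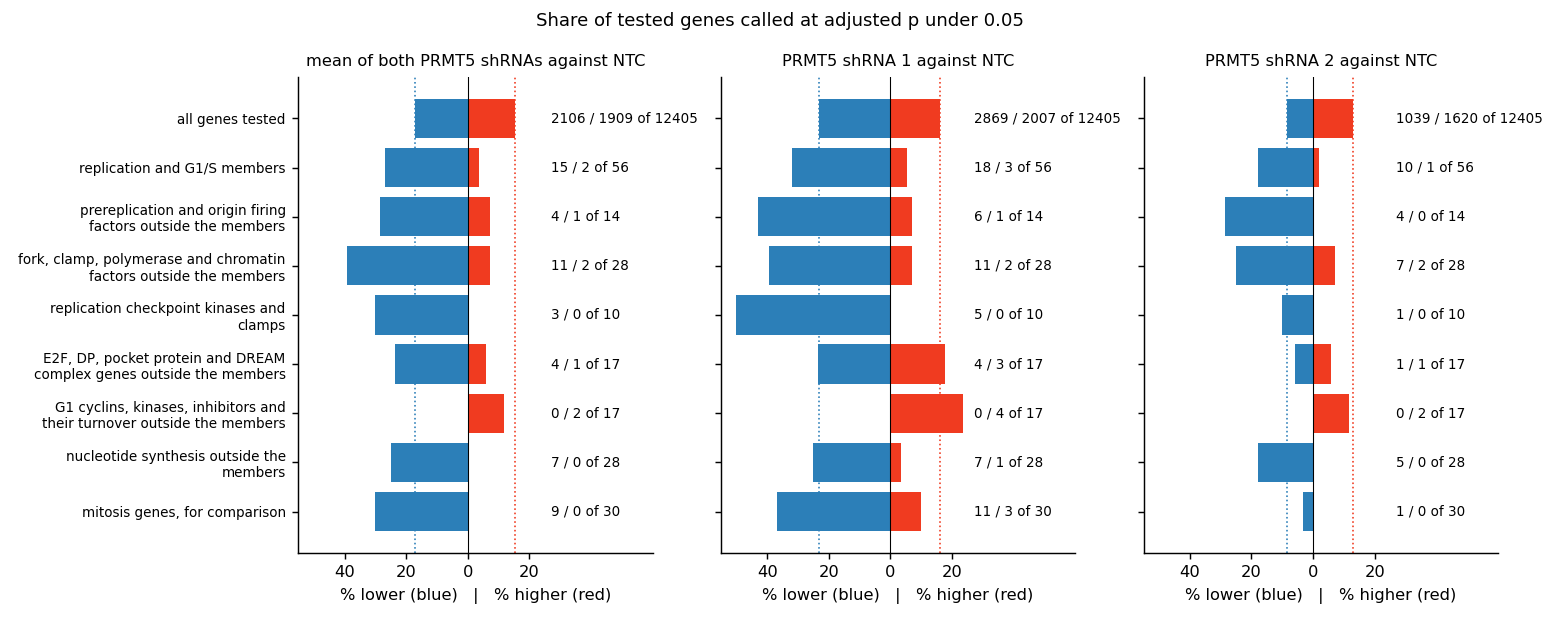
Share of tested genes called lower (blue) and higher (red), in percent, in the mean of both hairpins and with each hairpin, for the 56 genes (members) and for lists of related genes, with counts at the right and dotted lines at the share of all genes tested. In the mean of both hairpins the 56 genes stand at 26.8% lower and 3.57% higher, and all genes at 17.0% and 15.4%.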

How the data were processed

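Per the submitters' processing notes the authors used MAS5, whose version is not given in the sources used here. The deposited values are linear intensities of 54675 probe sets. Their trimmed means were equal (150.0 after 2% was trimmed at each end), so nothing was rescaled. Of the probe sets 41091 had 1 gene symbol in the platform annotation, 1801 several and 11721 none; 41037 matched RefSeq, with 0 symbols changed. Another 4 with several symbols carry one of the 56 and were not used. A probe set was kept if it reached its array's median on at least 2 of 6 arrays. Each gene took its brightest kept one by the mean of all 6, so high values in 1 group could decide the choice. Values were log2(intensity + 16), which understates changes of dim genes. All 6 arrays entered 1 limma 3.58.1 fit in R 4.3.3 (lmFit, contrasts.fit, eBayes with trend, 3 residual degrees of freedom; two-sided), adjusted over 12405 genes by Benjamini-Hochberg. The fit was tested on simulated data with 50 genes planted at each size of change. Of log2 changes of 0.25 it recovered 28% in the mean, 18% with shRNA 1, 16% with shRNA 2 and 24% between hairpins. Of changes of 0.5 it recovered 82% to 100%. Far fewer genes were changed there than were called here, so these shares need not carry over. A gene that did not pass may still differ by a small amount. The number of arrays limits precision, and the median replicate SD was 0.08 log2. The 56 genes and all lists were chosen with earlier results of these data known. Genes named are those called in the mean or between hairpins, and a fixed set of core genes. Of each list up to 4 called genes with the largest difference were named. MCM9 and TFDP2 were added as the only genes of their lists called higher. Other members were named within their role group after values were seen. Alternatives were pseudocounts of 1 and 64, no filter, quantile normalization, other probe set rules, no trend, a replicate block, both hairpins as 1 group, and each array left out. Promoters were searched with Python 3.11.15.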

Additional observations from a re-analysis of the deposited data

Results flagged for a closer look

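For 6 genes the difference from NTC had opposite signs with the 2 hairpins and the test between the hairpins passed (limma, Benjamini-Hochberg adjusted over all genes tested; NTC arrays are shared by both sides). MCM4, a helicase subunit, differed by -0.52 on the log2 scale between shRNA 2 and shRNA 1 (adjusted p = 0.00126), with 0.37 and -0.15 against NTC for shRNA 1 and shRNA 2. GINS1, a subunit of the GINS complex, differed by -0.32 (limma adjusted p = 0.00433), with 0.10 and -0.22. PRIM2, the large primase subunit, differed by -0.39 (limma adjusted p = 0.0422), with 0.19 and -0.20, and 1 shRNA 1 array at 323 stood above the other at 234. CLSPN, the checkpoint mediator claspin, differed by -0.36 (limma adjusted p = 0.0416), with 0.05 and -0.31. A second, dimmer CLSPN probe set went the other way, with -0.29 and 0.03. Its difference between the hairpins was 0.31 and did not pass (limma adjusted p = 0.062 in the fit over all probe sets). E2F1 and UHRF1 each differed by -0.20 (limma adjusted p = 0.044 and 0.0477), with 0.18 and -0.03, and 0.08 and -0.12. With 1 array left out, MCM4 and GINS1 kept the call in all 6 fits (-0.55 to -0.49 and -0.37 to -0.26). PRIM2 kept it in 3 (-0.61 to -0.17; lost without PRMT5 shRNA 1 replicate 1 or either shRNA 2 array), CLSPN in 1 (-0.54 to -0.17; kept without PRMT5 shRNA 2 replicate 2), UHRF1 in 1 (-0.28 to -0.12; kept without PRMT5 shRNA 1 replicate 2) and E2F1 in 0 (-0.23 to -0.18). Of the 12 differences from NTC, those of MCM4 with shRNA 1 and of GINS1 with shRNA 2 passed the test. For MCM4 this held on its brightest probe set alone.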

How the results depend on the processing

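Over the alternatives, the 17 genes called in the mean of both hairpins gave 252 values, of which 191 kept direction and call, 60 lost the call and 1 turned. For shRNA 1 these were 258, 32 and 1 of 291, for shRNA 2 95, 56 and 0 of 151, and between the hairpins 173, 62 and 2 of 237. CDC25A and MCM10 kept every call in the mean and with shRNA 2. Some settings also added genes. With the mean over a gene's probe sets, 22 of the 56 genes were called in the mean of both hairpins. CDC6, POLA2, CHAF1B, MCM7, POLE and E2F2 were gained there and CDT1 was lost. The values that turned were CDT1 in the mean, 0.013 with the mean over probe sets, and CHAF1A, at -0.053 between hairpins with the mean over probe sets, and at 0.0056 with shRNA 1 and -0.42 between hairpins without probe sets marked as matching several transcripts; a different probe set then stands for the gene. With both hairpins as 1 group, whose spread then holds the difference between hairpins, 3 of the 56 genes (CDC25A, MCM10 and RBL1) and 1500 of all genes were called in place of 17 and 4015. With shRNA 2 the count of 11 became 7 with no filter on intensity, 7 without the probe sets marked as above, 6 with no trend and 5 with the replicate block; between hairpins 17 became 11 with no filter. The cause of these changes in count was not tested. Leaving out 1 array gave 6 to 18 genes in the mean, 14 to 24 with shRNA 1, 2 to 7 with shRNA 2, 7 to 14 between hairpins and 9 to 28 of the probe sets (27 with all arrays). Over all genes it gave 2180 to 4255, 3178 to 5293, 1549 to 2452 and 1326 to 2832 (4015, 4876, 2659 and 3189 with all arrays).

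The deviations of same-numbered arrays correlated at -0.09, -0.18 and -0.01 over all genes tested, and at 0.215, 0.05 and 0.01 over the 56 genes, for NTC with shRNA 1, NTC with shRNA 2 and both hairpins. The correlation was not over 0.1 for every pair, so the numbers were not taken to pair the arrays. A fit with the replicate number as a block called 14 genes in the mean.

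Signal over background limits GINS4, ORC1, POLD1 and the second CDT1 probe set, which lay at or not far above the array medians.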
